A study of Mus musculus with 36 samples.

Results

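Interferon-stimulated genes (ISGs) are the genes that cells switch on when they sense interferon. A set of 43 mouse ISGs was followed across 9 groups of sorted monocytes and macrophages. The genes were taken by symbol, each through the probe set that the platform annotation gives to that gene alone, and 38 of the 43 had such a probe set among 19938 genes measured. Of these, 37 exceeded 4.62, the median log2 value of the whole table, in 4 or more of 36 arrays and were tested among 12244 genes.

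All values are deposited log2 values of 36 Affymetrix Mouse Gene 1.0 ST arrays, 4 arrays per group, from C57BL/6 mice. The study put precursor cells into the airways of newborn Csf2rb-/- mice, which lack the shared beta chain of the GM-CSF receptor and therefore lack normal alveolar macrophages. Macrophages that grew from the transferred cells were sorted from lung lavage 6 weeks after intranasal transfer. They came from yolk sac macrophages (called YS-derived here), fetal liver monocytes (FL-derived), bone marrow monocytes (BM-derived) or adult alveolar macrophages (AM-derived). The same 4 donor populations were profiled before transfer: macrophages of E12.5 yolk sac, monocytes of E15.5 fetal liver, monocytes of bone marrow from mice of 6 to 12 weeks, and alveolar macrophages lavaged from mice of 6 to 12 weeks. The controls were alveolar macrophages of wild-type mice at 6 weeks of age that received no cells. Donors were wild type and expressed both CD45.1 and CD45.2, by which the transferred cells were sorted, so the Csf2rb deletion is in the host only and the host keeps its own other lung cells. Embryonic tissues were dissociated with collagenase, marrow came from crushed bones and alveolar macrophages from lavage, so cell preparation differed with the organ, and the RNA was amplified. Every transferred group had therefore been through instillation and growth in a mutant lung, and none of the untransferred groups had; all 9 groups were sorted before RNA was isolated. The labels call the samples biological replicates without naming separate animals or pools, so the p-values measure the spread between these samples.

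Type I interferons bind the receptor pair Ifnar1 and Ifnar2, and the kinases Jak1 and Tyk2 then phosphorylate Stat2. Stat2 and Irf9 are parts of a complex that binds the interferon-stimulated response element in front of many ISGs. The products detect viral nucleic acid, degrade it, block its translation or trap new virus at the membrane, and Usp18 shuts the receptor down again. Macrophages keep a low output of these genes without infection, so their resting level is commonly read as a sign of tonic interferon signalling.

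The core of the response element is visible in the promoters of some of the genes described below. RefSeq promoter windows (mouse build GRCm38.p6, around the start site) were available for 33 of the 43 genes. The core GAAANNGAAA, searched on both strands, was present in 19 of these 33 (57.6%), against 3.99% of 27025 genes with a window and 3.65% of the 9816 of them tested on the arrays. The gamma-activated site TTCNNNGAA, which reads the same on both strands, was present in 7 of 33 (21.2%), against 9.55% and 8.09%. The 5 stretches below were chosen because each holds the core upstream of the start site of a gene that was lower in fetal liver than in bone marrow monocytes; capitals mark the core, and TTTCNNTTTC is the same core on the other strand.
Ifit1 (chr19:34640740-34640839, plus strand, bases -149 to -50): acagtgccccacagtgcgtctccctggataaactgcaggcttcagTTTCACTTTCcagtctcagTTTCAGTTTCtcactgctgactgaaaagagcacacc
Rsad2 (chr12:26456518-26456617, minus strand, bases -165 to -66): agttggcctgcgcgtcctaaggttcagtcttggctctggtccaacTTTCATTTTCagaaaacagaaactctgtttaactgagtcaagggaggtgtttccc
Bst2 (chr8:71537548-71537647, minus strand, bases -175 to -76): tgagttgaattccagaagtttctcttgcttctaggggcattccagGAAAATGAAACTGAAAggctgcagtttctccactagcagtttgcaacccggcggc
Irgm1 (chr11:48871421-48871520, minus strand, bases -100 to -1): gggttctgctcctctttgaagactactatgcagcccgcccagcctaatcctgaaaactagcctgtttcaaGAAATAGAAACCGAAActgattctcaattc
Stat2 (chr10:128270248-128270347, plus strand, bases -250 to -151): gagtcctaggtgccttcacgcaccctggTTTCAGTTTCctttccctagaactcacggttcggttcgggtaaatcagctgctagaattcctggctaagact
Ifit1 holds 2 separate cores, Bst2 and Irgm1 hold 2 that overlap, and Rsad2 and Stat2 hold 1 each. A match is a string of letters and says nothing of binding.

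The ISGs were highest before transfer in adult bone marrow monocytes and yolk sac macrophages, and low in fetal liver monocytes and in every alveolar macrophage group. The mean over the 37 tested genes was 7.01 ± 0.13 in yolk sac macrophages, 5.92 ± 0.24 in fetal liver monocytes and 7.52 ± 0.13 in bone marrow monocytes (log2, SD, n = 4 arrays each). In the 6 alveolar macrophage groups it was 6.10 ± 0.42 in YS-derived, 5.90 ± 0.15 in FL-derived, 6.10 ± 0.31 in BM-derived, 5.84 ± 0.16 in AM-derived, 5.62 ± 0.12 in adult and 5.57 ± 0.07 in 6-week alveolar macrophages. The lowest bone marrow array, 7.35, was above the highest yolk sac array, 7.17, and the lowest yolk sac array, 6.87, was above every array of the other 7 groups, of which the highest was 6.50. Within the YS-derived group, arrays 1 and 4 had 6.41 and 6.50 and arrays 2 and 3 had 5.65 and 5.83, so this group was split more widely than the controls, which ran between 5.49 and 5.65.

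**Figure D1:**
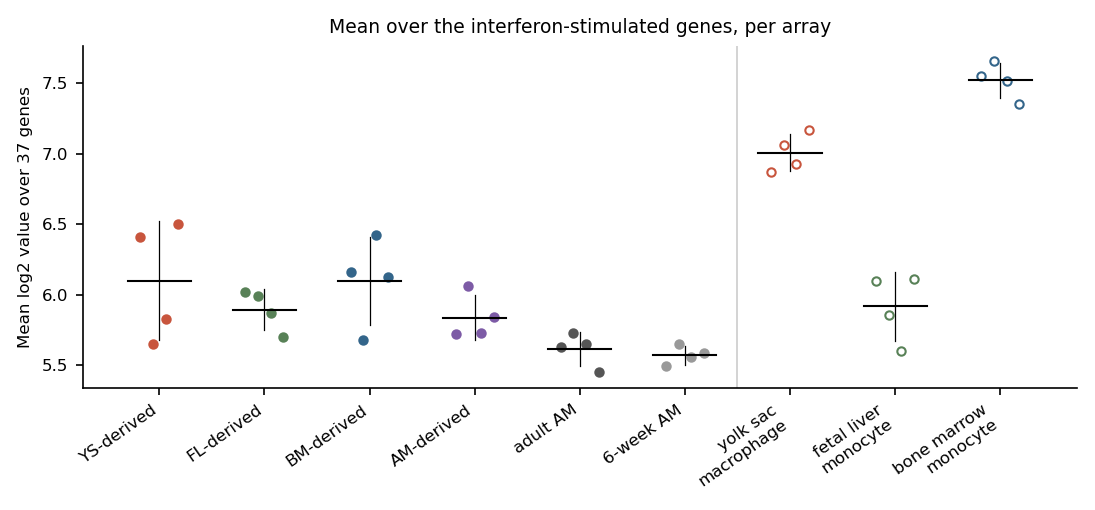
Mean log2 value over 37 interferon-stimulated genes in each of 36 arrays, by group. Dots are arrays (open before transfer for the 3 embryonic and marrow precursors, filled for alveolar macrophages), horizontal bars are group means and vertical bars ± 1 SD; bone marrow monocytes sit between 7.35 and 7.66 and the 6-week alveolar macrophages between 5.49 and 5.65.

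Bone marrow monocytes had the highest group mean for 29 of the 37 genes, yolk sac macrophages for 7 and BM-derived macrophages for 1 (Ddx58). The lowest mean lay in the 6-week alveolar macrophages for 14 genes and in fetal liver monocytes for 11. The difference between the highest and the lowest of the 9 group means had a median of 2.25 (log2) over these genes, against 0.74 over all 12244 genes tested, and within the 6 alveolar macrophage groups these medians were 0.60 and 0.31. Differences are measured on a summary scale that compresses dim genes: in each untransferred alveolar macrophage group 29 of the 37 genes had a mean above the table median.

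The sorted cells carried markers of their labels, although other markers of the same cell types were shared between groups. Siglecf, a lectin of alveolar macrophages, was at 8.66 to 9.64 in the 6 alveolar macrophage groups and at 5.82 to 5.87 in the 3 precursors from other organs. Ccr2, the chemokine receptor of classical monocytes, was at 10.71 in fetal liver and 11.50 in bone marrow monocytes, and Lyve1, a tissue macrophage receptor, was at 11.34 in yolk sac macrophages and at 4.22 to 4.42 in the other 8 groups. Other markers were less specific. The alveolar macrophage marker Chil3 was at 12.25 in bone marrow monocytes too, against 12.86 to 13.02 in the 6 alveolar macrophage groups. The tissue macrophage marker Mrc1 was at 10.61 to 11.06 in those 6 groups, against 11.76 in yolk sac macrophages. The classical monocyte marker S100a8 was at 9.15 to 10.86 in the same 6 groups, where S100a9 (3.51 to 4.27) and Plac8 (3.21 to 3.83) were low. Lymphocyte markers stayed under the table median in all groups except Cd3e, at 4.98 to 5.18. No pair of arrays was identical, the highest correlation between 2 arrays being 0.985.

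Fetal liver monocytes had lower values than adult bone marrow monocytes for 35 of the 37 ISGs, and 0 were higher. Over all genes tested, 8.97% were called lower and 10.6% higher in this comparison (limma, Benjamini-Hochberg adjusted p under 0.05), and the median difference over the ISGs was -1.43, against 0.00 over all genes. Eif2ak2, the kinase PKR that halts translation on double-stranded RNA, did not pass at -0.76 (adjusted p = 0.0561), and neither did Ifi35 at -0.35 (adjusted p = 0.336). Among the 35, Ifi213, Cmpk2, Mx2, Ifit2, Ifit1 and Slfn5 exceeded the table median in only 7 to 12 arrays, which included all 4 bone marrow arrays. The bone marrow arrays alone were enough for the filter, so the calls of these genes are not independent of it. All 35 called genes also had no overlap between the 4 fetal liver and the 4 bone marrow arrays. In Herc6 the nearest arrays were at 6.269 and 6.272. The share of all genes without overlap was not counted, so this is no separate support. In bulk samples, fewer cells with a gene on and less RNA per cell cannot be told apart.

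The largest of these differences was that of Ifit3, which belongs to a family that binds foreign RNA ends and stops their translation. Ifit3 had 4.61, 4.97, 4.35 and 5.69 in fetal liver monocytes, against 9.28, 9.31, 8.72 and 8.72 in bone marrow monocytes. The groups were far apart at their nearest arrays, and the difference was -4.10 ± 0.48 (SE; adjusted p = 6.7e-08), which is 17.2-fold lower in fetal liver. Ifi213, a member of the mouse PYHIN family of DNA-binding proteins, had 2.94, 3.41, 3.12 and 3.80 in fetal liver monocytes, against 7.66, 7.52, 7.82 and 6.19 in bone marrow monocytes. The fetal liver values are all under the table median, and bone marrow array 4 is low within its group; the difference was -3.98 ± 0.24 (adjusted p = 1.33e-14). Oasl2, a 2'-5'-oligoadenylate synthetase relative, had 5.53, 4.80, 5.33 and 5.67 in fetal liver, against 8.06, 7.86, 8.23 and 7.81 in bone marrow, a difference of -2.65 ± 0.31 (adjusted p = 6.32e-08). Every fetal liver array lay under every bone marrow array for Oasl2.

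The feedback protease Usp18, which removes ISG15 from proteins and blocks the receptor, behaved alike. It had 5.77, 5.48, 5.26 and 5.63 in fetal liver monocytes, against 8.45, 7.56, 7.86 and 8.05 in bone marrow monocytes, with tight and separate groups, and differed by -2.45 ± 0.22 (adjusted p = 3.73e-10). Slfn5, of the Schlafen family of antiviral and growth-related proteins, had 5.14, 4.74, 3.94 and 5.88 in fetal liver, against 6.71, 8.18, 7.27 and 6.85 in bone marrow. Its arrays spread more in both groups but did not overlap, and the difference was -2.32 ± 0.34 (adjusted p = 4.77e-06). By role, all 4 factors and feedback genes, all 5 OAS genes, all 3 IFIT genes, 5 of 5 ubiquitin-related genes, 8 of 8 antiviral effectors, both GTPases, 5 of 6 nucleic acid sensors and 3 of 4 other genes were lower, with role medians between -0.82 (ubiquitin-related) and -2.29 (IFIT). With any 1 array left out, at least 34 genes were lower, and under the other settings given at the end at least 29 were.

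Yolk sac macrophages, taken at an earlier embryonic stage, had higher ISG values than fetal liver monocytes. Of the 37 genes 24 had a higher and 3 a lower value, against 18.6% and 14.5% of all genes tested, and the median over the ISGs was 0.96. The other settings given at the end left at least 19 higher. Both groups are embryonic, but they differ in cell type, organ and stage, and these cannot be told apart here.

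Ifit3 led this comparison too, with 9.002, 9.14, 8.86 and 9.24 in yolk sac macrophages, against the fetal liver values given above. The yolk sac arrays were close together and all above fetal liver, by 4.16 ± 0.48 (adjusted p = 9.96e-09). Rtp4, a transporter chaperone known to restrain interferon signalling, had 10.33, 10.36, 10.23 and 10.15 in yolk sac macrophages, against 7.33, 7.67, 6.72 and 7.20 in fetal liver monocytes, and differed by 3.04 ± 0.46 (adjusted p = 2.44e-06). The Rtp4 values of yolk sac macrophages were the highest of all 9 groups. Ifit2, a partner of Ifit3 that can promote cell death, had 6.12, 6.53, 5.67 and 6.60 in yolk sac macrophages, against 3.65, 4.06, 3.16 and 3.33 in fetal liver monocytes, where it was dim, and differed by 2.68 ± 0.30 (adjusted p = 8.6e-09). Ifit2 groups were separate, as were those of the next pair.

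Oasl2 had 7.62, 8.19, 7.42 and 8.11 in yolk sac macrophages, which put it 2.50 ± 0.31 above fetal liver monocytes (adjusted p = 4.1e-08). Oas2, which makes the 2'-5'-linked messenger that activates RNase L, had 7.24, 7.38, 7.42 and 7.91 in yolk sac macrophages, against 5.09, 5.11, 4.85 and 5.14 in fetal liver monocytes, a difference of 2.44 ± 0.32 (adjusted p = 1.29e-07). Both OAS-type genes were clear of overlap.

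The 3 genes that went the other way were Sp100, Zbp1 and Cmpk2. Sp100, a component of nuclear bodies that silence viral DNA, had 6.82, 6.54, 7.05 and 7.01 in yolk sac macrophages, against 8.20, 7.96, 7.71 and 8.33 in fetal liver monocytes, and differed by -1.19 ± 0.24 (adjusted p = 0.00019). Zbp1, a sensor of Z-form nucleic acid that can start necroptosis, had 6.12, 6.45, 6.33 and 6.51 in yolk sac macrophages, against 6.79, 7.13, 6.64 and 7.34 in fetal liver monocytes. Its groups were separate by a small margin, and the difference of -0.62 ± 0.21 (adjusted p = 0.0179) lost its call without yolk sac array 1 or fetal liver array 2 or 4 (highest adjusted p = 0.0812). Cmpk2, a mitochondrial nucleotide kinase, had 4.00, 4.32, 3.92 and 4.54 in yolk sac macrophages, against 4.84, 4.31, 5.08 and 4.74 in fetal liver monocytes; these arrays overlapped, and the difference was -0.55 ± 0.16 (adjusted p = 0.00691).

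Between yolk sac macrophages and bone marrow monocytes the ISGs were mixed: 2 of 37 were higher and 15 lower, against 24.1% and 18.1% of all genes, with a median of -0.33. The 2 higher genes were Oas2 and Bst2. Oas2 had 6.13, 6.08, 6.34 and 5.96 in bone marrow monocytes, all under the yolk sac values above, and differed by 1.36 ± 0.32 (adjusted p = 0.000709). Bst2, or tetherin, which holds budding virus at the cell surface, had 10.15, 10.36, 10.45 and 10.50 in yolk sac macrophages, against 9.44, 8.99, 9.14 and 9.23 in bone marrow monocytes, and was higher by 1.17 ± 0.22 (adjusted p = 5.66e-05), with no overlap.

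The 15 genes with lower values in yolk sac macrophages were led by Ifi213, Sp100 and Zbp1. Ifi213 had 4.75, 5.14, 4.49 and 4.91 in yolk sac macrophages, between the bone marrow and the fetal liver values, and differed from bone marrow by -2.48 ± 0.24 (adjusted p = 1.8e-10). Sp100 had 8.97, 9.68, 9.37 and 9.22 in bone marrow monocytes and the yolk sac difference was -2.45 ± 0.24 (adjusted p = 3.49e-10). Zbp1 had 8.72, 9.10, 8.25 and 8.70 in bone marrow monocytes and the yolk sac difference was -2.34 ± 0.21 (adjusted p = 1.88e-11). None of these 3 overlapped between yolk sac and bone marrow. Oas3, the synthetase that acts on long double-stranded RNA, had 4.36, 4.60, 4.40 and 4.58 in yolk sac macrophages, against 6.40, 6.19, 6.80 and 6.42 in bone marrow monocytes, a difference of -1.97 ± 0.27 (adjusted p = 2.07e-07). Cmpk2 had 5.63, 5.59, 5.46 and 5.76 in bone marrow monocytes and the yolk sac difference was -1.42 ± 0.16 (adjusted p = 4.53e-09). In yolk sac macrophages every array of Oas3 and Cmpk2 was under the table median, and in bone marrow monocytes every array was above it.

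**Figure D2:**
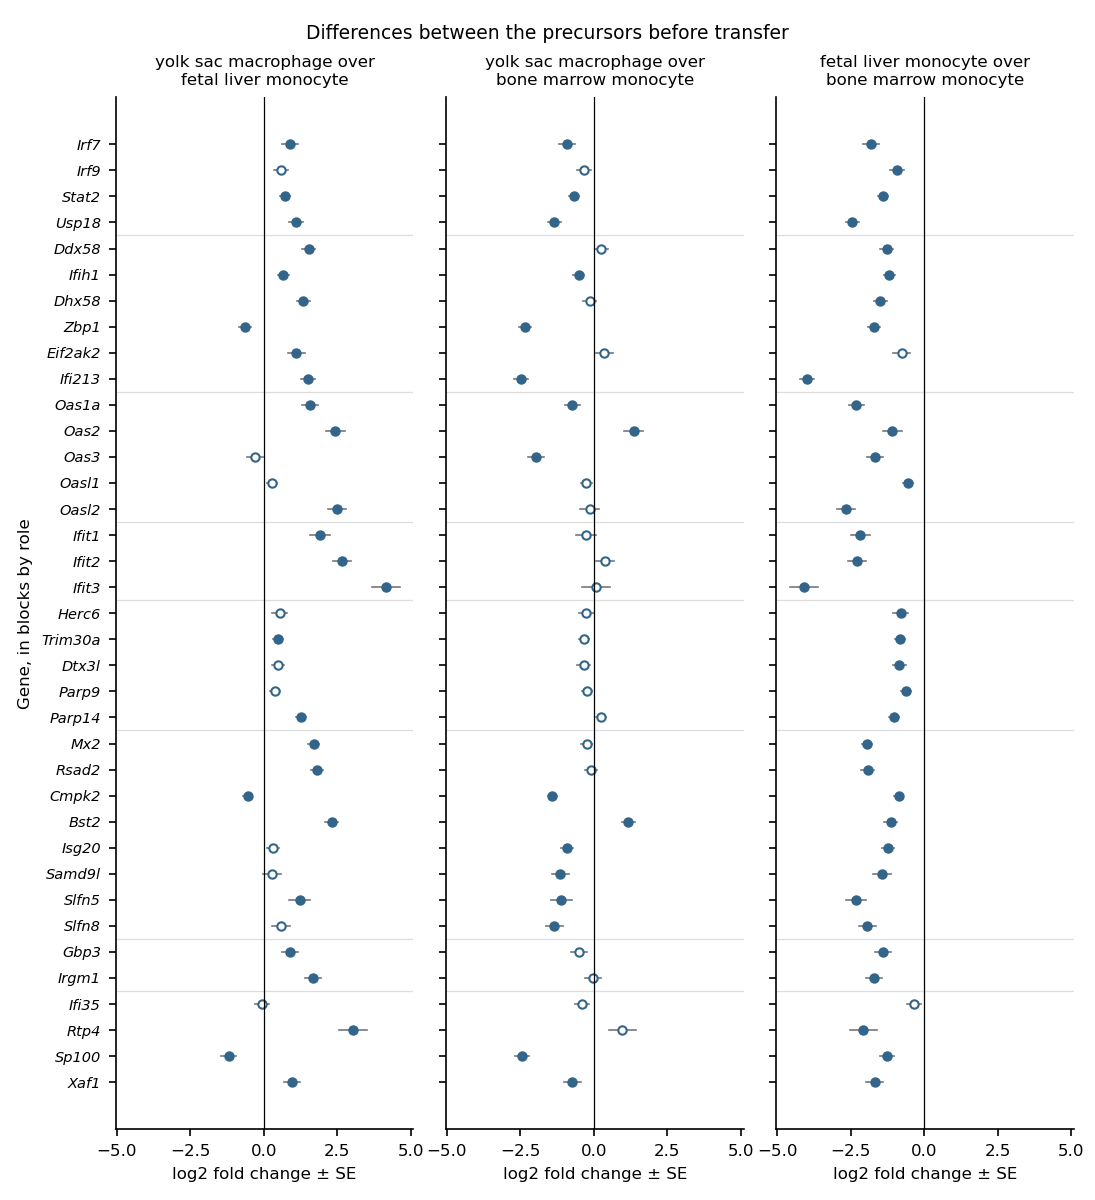
Log2 fold change ± SE of 37 interferon-stimulated genes between the 3 precursors, in blocks by role (factors and feedback, sensors, OAS, IFIT, ubiquitin-related, effectors, GTPases, others); filled dots passed at adjusted p under 0.05. The right panel lies left of 0 throughout, from -4.10 for Ifit3 to -0.35 for Ifi35, and the left panel lies mostly right of 0.

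The promoter core and the differences can be set side by side for the 29 tested genes with a RefSeq window. Of the 16 with the core, 14 had higher values in yolk sac macrophages than in fetal liver and 0 lower; of the 13 without it, 4 were higher and 2 lower, with medians of 1.36 and 0.49. In fetal liver against bone marrow monocytes, 15 of the 16 and 12 of the 13 were lower, with medians of -1.69 and -1.23. In BM-derived macrophages against bone marrow monocytes, 13 of the 16 and 9 of the 13 were lower, with medians of -1.43 and -1.83, so here the genes without the core had the larger median fall. In YS-derived macrophages against yolk sac macrophages, 9 of the 16 and 6 of the 13 were lower, with medians of -1.19 and -0.32. In the 4 transferred against the 2 untransferred alveolar macrophage groups, 2 of the 16 and 2 of the 13 were higher, with medians of 0.32 and 0.24. These are counts without a test.

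Interferon receptor, signalling and induction genes outside the module were counted between the monocyte populations, where 8.97% of all genes were lower and 10.6% higher. Of 5 tested interferon receptor genes, 1 was lower in fetal liver than in bone marrow monocytes, Ifngr2 of the interferon gamma receptor (-0.41 ± 0.12, adjusted p = 0.0156), and Ifnar1 and Ifnar2 were at 7.67 and 9.85 in fetal liver, against 7.88 and 10.18 in bone marrow. Of 9 kinases and factors outside the module, 1 was lower, Irf2 (-0.75 ± 0.14, adjusted p = 0.000229). Of 12 genes that detect nucleic acid and induce interferon, 6 were lower and 1 higher: Tlr7, the endosomal receptor for single-stranded RNA, was at 5.64 in fetal liver, against 8.24 in bone marrow monocytes (-2.60 ± 0.17, adjusted p = 8.6e-14), and the kinase Ikbke was higher by 0.55 ± 0.16 (adjusted p = 0.00974). Among 8 brakes, Trex1 (-0.85), Adar (-0.70) and Samhd1 (-0.60) were lower, all of which are themselves induced by interferon. Of 5 interferon genes with a probe set, 4 had means under the table median in every group: Ifnb1 lay between 2.94 and 3.80, Ifna4 between 2.71 and 3.12, Ifng between 3.44 and 3.73 and Ifna2 between 4.05 and 4.39 in the 9 group means. The lambda interferon gene Ifnl2 lay above that median in every group, between 5.61 and 5.98, and neither Ifna2 nor Ifnl2 was called between the precursors.

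Other interferon-induced genes were counted as well. Of 36 further interferon-induced genes tested, 22 were lower in fetal liver than in bone marrow monocytes and 0 higher, with a median of -0.64. Of all genes tested, 8.97% were lower and 10.6% higher. Tap1, the peptide transporter of antigen presentation, differed by -1.68 ± 0.17 (adjusted p = 2.42e-09) and the secreted glycoprotein Lgals3bp by -2.40 ± 0.24 (adjusted p = 3.95e-09). Between yolk sac macrophages and fetal liver monocytes 17 were higher and 7 lower, against 18.6% and 14.5% of all genes tested. The chemokine Cxcl10 was at 10.27 in yolk sac macrophages, against 5.78 in fetal liver monocytes (4.48 ± 0.39), Ddx60 was higher by 3.17 ± 0.19, and Slfn1 differed by -4.03 ± 0.34. The transcription factor Irf1 was higher in yolk sac macrophages than in fetal liver monocytes by 1.93 ± 0.21, at 8.53, against 6.60. The list was chosen with results of these data known, so its direction is not separate evidence.

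Some other markers moved with these groups. The embryonic globin Hbb-y, a red cell gene, was at 10.44 in yolk sac macrophages and at 3.50 to 3.79 in the other 8 groups. The neutrophil granule gene Camp was at 9.47 in fetal liver, against 10.99 in bone marrow monocytes, and the 6 neutrophil markers together averaged 5.83 to 6.69 in fetal liver arrays, against 5.58 to 6.91 in bone marrow arrays, while Ly6g and Retnlg were under the table median in both. Of these markers Cxcr2, the neutrophil chemokine receptor, was at 8.33 in fetal liver, against 4.44 in bone marrow monocytes (3.89 ± 0.40, adjusted p = 5.75e-09). Of 5 markers of non-classical monocytes, Ace was at 4.35 in fetal liver, against 5.76 in bone marrow monocytes (-1.41 ± 0.19, adjusted p = 1.06e-06), Spn at 6.79, against 7.46 (-0.67 ± 0.20, adjusted p = 0.013), and Nr4a1 at 7.95, against 6.69 (1.26 ± 0.28, adjusted p = 0.00129). Together these 5 averaged 5.76 to 6.12 in fetal liver arrays, against 6.15 to 6.52 in bone marrow arrays. Of 5 plasmacytoid dendritic cell genes with a probe set, Siglech was at 5.46 in yolk sac macrophages and at 4.50 to 4.67 elsewhere. The rest of that list did not rise there. Ly6d (4.58), Pacsin1 (4.28) and Ccr9 (3.58) had their lowest group mean in yolk sac macrophages. Cox6a2 was at 5.57 there and at 5.31 to 5.60 elsewhere. The part of all these markers in the ISG differences was not tested.

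After transfer of bone marrow monocytes, the ISGs fell. In BM-derived macrophages 28 of 37 were lower than in bone marrow monocytes and 0 higher, against 16.1% and 20.3% of all genes tested, with a median of -1.44. At least 22 were lower under the other settings given at the end. The 28 include genes that passed the filter through the bone marrow arrays, such as Ifi213 and Slfn5. Ifi213 had 2.59, 3.01, 2.92 and 2.61 in BM-derived macrophages, all under the table median and far under the bone marrow values, a difference of -4.52 ± 0.24 (adjusted p = 4.22e-17). Slfn5 had 4.37, 3.10, 4.26 and 3.71 in BM-derived macrophages and differed by -3.39 ± 0.34 (adjusted p = 6.12e-10). Its values there were also under the table median. Ifit3 had 7.01, 5.58, 6.39 and 5.58 in BM-derived macrophages, none of which reached the bone marrow range, and differed by -2.87 ± 0.48 (adjusted p = 8.79e-06).

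Regulators were among the genes that fell furthest. Usp18 had 5.33, 4.63, 5.46 and 5.05 in BM-derived macrophages and differed from bone marrow monocytes by -2.86 ± 0.22 (adjusted p = 9.25e-13). Irf7, the factor that amplifies interferon alpha production, had 6.25, 5.15, 6.03 and 6.58 in BM-derived macrophages, against 8.87, 8.12, 8.42 and 8.36 in bone marrow monocytes, a difference of -2.44 ± 0.27 (adjusted p = 3.63e-09). Array 2 was the lowest BM-derived array for both, and neither gene overlapped with bone marrow. All 4 factors and feedback genes, 3 of 3 IFIT and 4 of 5 OAS genes were lower. Of 6 nucleic acid sensors 3 were lower, Ifi213, Zbp1 (-1.65) and Dhx58 (-0.72), and Ddx58 (0.28), Ifih1 (-0.13) and Eif2ak2 (-0.27) did not pass.

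Fetal liver monocytes started low, and their ISGs showed no common direction over transfer. In FL-derived macrophages 5 of 37 rose and 7 fell relative to fetal liver monocytes, against 20.4% and 18% of all genes tested, with a median of 0.12. The higher count was 3 without fetal liver array 3 or FL-derived array 1 or 2, and the lower count was 4 without fetal liver array 1 or 4. The 25 other genes differed by -0.60 to 1.09; Ifit3 was at the upper end, with 6.67, 6.23, 6.52 and 4.56 in FL-derived macrophages, where array 4 lay within the fetal liver range.

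The 5 genes that rose were Ddx58 and Ifih1 (2 of 6 sensors), Stat2 (1 of 4 factors and feedback genes, of which 2 fell), Oas1a and Dtx3l. Ddx58, or RIG-I, which binds the ends of viral RNA, had 7.31, 7.63, 7.45 and 7.01 in FL-derived macrophages, against 6.14, 5.67, 5.39 and 6.41 in fetal liver monocytes, and rose by 1.45 ± 0.21 (adjusted p = 1.07e-06). Ifih1, or MDA5, the sensor of long double-stranded RNA, had 7.23, 7.05, 6.99 and 6.96 in FL-derived macrophages, against 6.32, 5.97, 5.67 and 6.53 in fetal liver monocytes, and rose by 0.94 ± 0.18 (adjusted p = 7.6e-05). Both sensors were clear of overlap. Stat2 had 6.87, 6.74, 6.52 and 6.47 in FL-derived macrophages, against 5.79, 5.78, 5.64 and 6.03 in fetal liver monocytes, and rose by 0.84 ± 0.17 (adjusted p = 0.000121), again without overlap.

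A pair of smaller rises depended on single arrays. Oas1a had 8.16, 8.10, 7.29 and 7.32 in FL-derived macrophages, against 7.02, 6.89, 6.85 and 7.41 in fetal liver monocytes, overlapping at the top of fetal liver; its difference of 0.67 ± 0.26 (adjusted p = 0.0398) lost its call without fetal liver array 1, 2 or 3 or FL-derived array 1 or 2 (highest adjusted p = 0.15), and also with no filter or with each array centred on its median. Dtx3l, a ubiquitin ligase that works with Parp9, had 7.38, 7.35, 6.98 and 7.002 in FL-derived macrophages, against 6.79, 6.59, 6.29 and 6.56 in fetal liver monocytes. These did not overlap, and the difference of 0.62 ± 0.22 (adjusted p = 0.0213) lost its call without fetal liver array 3 or FL-derived array 1 or 2 (highest adjusted p = 0.076).

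Among the genes that fell in FL-derived macrophages were Sp100, Slfn5 and Cmpk2. Sp100 had 6.31, 6.54, 5.96 and 6.47 in FL-derived macrophages, below the whole fetal liver range, and fell by 1.73 ± 0.24 (adjusted p = 4.79e-07). Slfn5 had 3.69, 3.17, 3.33 and 3.13 in FL-derived macrophages, dim in all 4, and fell by 1.60 ± 0.34 (adjusted p = 0.000295). Cmpk2 had 3.22, 3.44, 3.23 and 3.17 and fell by 1.48 ± 0.16 (adjusted p = 1.8e-09), also to values under the table median. The other 4 that fell were Irf7 (-0.84), Gbp3 (-0.67), Irf9 (-0.66) and Trim30a (-0.54).

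Yolk sac macrophages started high and most of their ISGs fell. In YS-derived macrophages 21 of 37 were lower than in yolk sac macrophages and 1 higher, against 23.2% and 19.6% of all genes tested, with a median of -0.99. The higher count was 2 without YS-derived array 2, and the lower count was at least 15 under the other settings given at the end. The arrays of this group were split. Rtp4 had 8.76, 6.79, 7.13 and 8.32 in YS-derived macrophages, with arrays 1 and 4 high, and fell by 2.52 ± 0.46 against yolk sac macrophages (adjusted p = 3.3e-05). Oas2 had 6.18, 4.58, 4.86 and 5.87 and fell by 2.11 ± 0.32 (adjusted p = 1.21e-06). Oasl2 had 6.29, 5.06, 5.19 and 7.01 and fell by 1.95 ± 0.31 (adjusted p = 2.83e-06). Arrays 1 and 4 were the high pair in all 3 genes, yet every YS-derived array lay under every yolk sac array.

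Slfn5 had 4.62, 3.03, 3.39 and 4.70 in YS-derived macrophages, against 5.90, 5.94, 6.07 and 6.68 in yolk sac macrophages, and fell by 2.21 ± 0.34 (adjusted p = 2.24e-06). Ifit3 had 8.02, 6.00, 6.16 and 7.76 in YS-derived macrophages and fell by 2.07 ± 0.48 (adjusted p = 0.000559), with the same 2 arrays high and no overlap with yolk sac macrophages. Zbp1 went the other way: it had 7.28, 6.56, 7.06 and 7.33 in YS-derived macrophages, all above the yolk sac values, and rose by 0.71 ± 0.21 (adjusted p = 0.00538). After transfer, 28 ISGs were lower for bone marrow monocytes and 21 were lower for yolk sac macrophages. Of these, 20 were in both lists. The first list held most of the tested ISGs, so much of the second would fall in it by list size alone. The overlap among all genes tested was not counted, so the 20 shared genes are a description without a baseline.

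**Figure D3:**
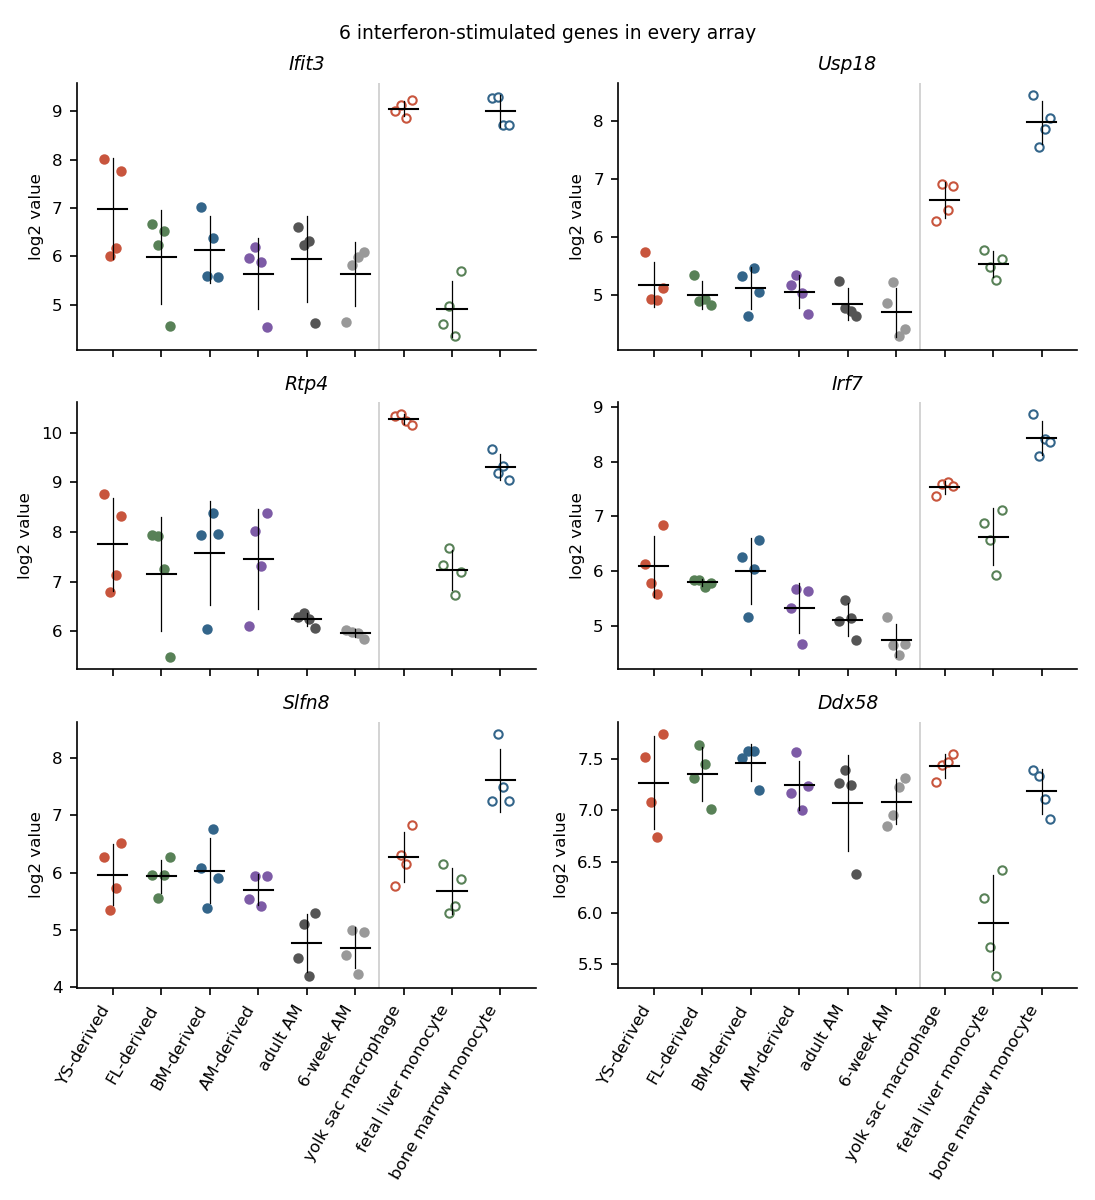
Log2 values of Ifit3, Usp18, Rtp4, Irf7, Slfn8 and Ddx58 in all 36 arrays, by group. Dots are arrays, horizontal bars group means and vertical bars ± 1 SD; the precursors stand right of the line, and for Ifit3 the fetal liver monocytes (4.35 to 5.69) lie apart from the other precursors while the alveolar macrophage groups overlap.

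**Figure D4:**
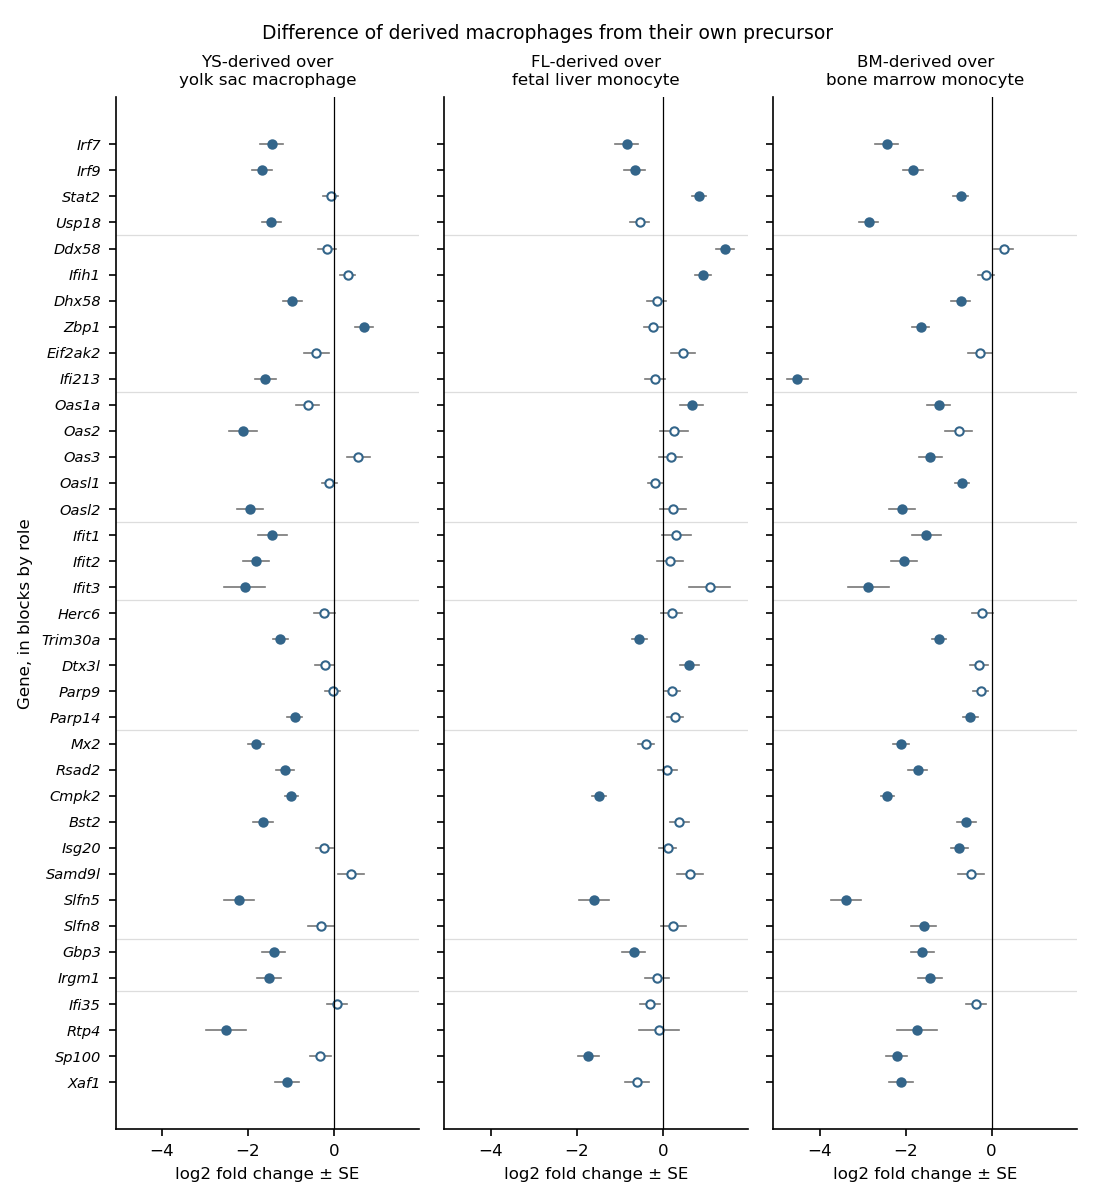
Log2 fold change ± SE of 37 interferon-stimulated genes in derived macrophages over their own precursor, in blocks by role; filled dots passed at adjusted p under 0.05. BM-derived macrophages have 28 filled dots left of 0, YS-derived 21, and FL-derived macrophages have 7 left and 5 right of 0.

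The difference between these changes was tested directly. The change over transfer was higher (less of a fall, or a rise) for fetal liver than for bone marrow monocytes in 24 of 37 ISGs and lower in 0, against 4.26% and 5.68% of all genes tested; Ifi213 differed by 4.34 ± 0.34, Ifit3 by 3.96 ± 0.67 and Usp18 by 2.33 ± 0.31 (adjusted p = 2.89e-11, 0.00012 and 3.33e-06). For yolk sac macrophages the change was lower than for fetal liver monocytes in 19 and higher in 2, against 13.5% and 9.48% of all genes. Ifit3 differed by -3.16 ± 0.67 and Rtp4 by -2.43 ± 0.66, and the 2 higher genes were Sp100 (1.41 ± 0.35) and Zbp1 (0.94 ± 0.29). For yolk sac macrophages against bone marrow monocytes it was higher in 9 and lower in 2, against 12.4% and 18.2%, with Oas2 (-1.35 ± 0.45) and Bst2 (-1.05 ± 0.31) lower. The 2 lower calls became 1 without yolk sac array 4, BM-derived array 3 or 4, or YS-derived array 2 or 3. The 9 higher calls became 16 with each array centred on its median. These comparisons share arrays with each other and with the precursor comparisons.

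The receptors for interferon fell in all 3 transfers. Of 5 tested receptor genes, 5 fell in YS-derived, 4 in FL-derived and 4 in BM-derived macrophages. The shares of all genes tested that fell were 23.2%, 18% and 16.1% in the same order. The difference was -1.42 ± 0.18, -0.92 ± 0.18 and -0.84 ± 0.18 in these 3 groups for Ifnar1, and for Ifnar2 it was -0.71 ± 0.12, -0.61 ± 0.12 and -1.05 ± 0.12. The lineage factors Irf5 and Irf8 fell as well, with differences for Irf8 of -0.68 ± 0.16 in YS-derived, -1.22 ± 0.16 in FL-derived and -1.62 ± 0.16 in BM-derived macrophages. The adaptor Mavs, which relays signals from Ddx58 and Ifih1, rose by 0.69 ± 0.16, 1.53 ± 0.16 and 1.66 ± 0.16, and Tlr9, the receptor for unmethylated DNA, differed by -2.60 ± 0.20, -2.07 ± 0.20 and -2.94 ± 0.20, to group means under the table median.

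Tlr7 rose by 2.97 ± 0.17 in FL-derived macrophages, to 8.61, against 5.64 in fetal liver monocytes. Of 36 further interferon-induced genes, 14 fell and 5 rose in YS-derived, 10 fell and 8 rose in FL-derived and 19 fell and 3 rose in BM-derived macrophages. Of all genes tested, 23.2% fell and 19.6% rose in YS-derived, 18% and 20.4% in FL-derived and 16.1% and 20.3% in BM-derived macrophages. Ifitm3 moved by more than any tested member in each of the 3. Ifitm3, which blocks virus entry at the endosome, differed by -6.17 ± 0.57, -7.02 ± 0.57 and -6.29 ± 0.57, and the checkpoint ligand Cd274 rose by 3.45 ± 0.23, 3.74 ± 0.23 and 3.84 ± 0.23 in YS-, FL- and BM-derived macrophages.

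Once in the lung, the macrophages of different origin did not differ in a called ISG. In the 6 comparisons between the 4 transferred groups, 0 of 37 were called by limma, and 3 (YS-derived against BM-derived), 4 (YS-derived against FL-derived), 5 (YS-derived against AM-derived), 2 (FL-derived against BM-derived), 1 (FL-derived against AM-derived) and 7 (BM-derived against AM-derived) had an unadjusted p under 0.05. The shares of all genes called in either direction were 0.833%, 0.27%, 0.588%, 0.417%, 0.335% and 0.425% in the same order. These shares are at adjusted p. The share of all genes at an unadjusted p under 0.05 was not counted, so no unadjusted count given here has a baseline. The largest ISG differences in the 6 comparisons were 1.34 (YS-derived over AM-derived) and 0.99 (YS-derived over FL-derived), both upward. The lowest adjusted p was 0.0586, in FL-derived against BM-derived macrophages, where Dhx58 differed most, by -0.91. Without BM-derived array 2, 1 gene was called lower in FL-derived than in BM-derived macrophages. Adult against 6-week alveolar macrophages, both untransferred, had 0 ISGs called and 1 at an unadjusted p under 0.05, with 0.0163% of all genes called.

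Against the 6-week controls, every called ISG was higher in the transferred cells. In YS-derived macrophages 5 of 37 were higher and 0 lower (1.02% and 0.702% of all genes), in FL-derived macrophages 2 and 0 (0.604% and 0.441%), and in BM-derived macrophages 5 and 0 (0.825% and 0.482%). AM-derived macrophages had 0 called against the 6-week controls (1.07% of all genes in either direction) and 0 against adult alveolar macrophages (0.702%). At an unadjusted p under 0.05 there were 8 and 6 ISGs, again without a counted share of all genes as a baseline.  These comparisons share the 4 control arrays. The median over all 37 ISGs was 0.40 in YS-derived, 0.23 in FL-derived, 0.41 in BM-derived and 0.19 in AM-derived macrophages.

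Irf7 had 6.14, 5.78, 5.58 and 6.84 in YS-derived, 5.84, 5.83, 5.71 and 5.79 in FL-derived and 6.25, 5.15, 6.03 and 6.58 in BM-derived macrophages, against 5.16, 4.64, 4.46 and 4.67 in 6-week alveolar macrophages. All YS- and FL-derived arrays lay above the controls, and BM-derived array 2 lay inside their range by a small margin. The differences were 1.35 ± 0.27 (adjusted p = 0.00189), 1.06 ± 0.27 (adjusted p = 0.0404) and 1.27 ± 0.27 (adjusted p = 0.00574). The call in FL-derived macrophages was lost in 7 of 8 fits that left out 1 array (all except control array 1), and that in BM-derived macrophages without BM-derived array 4 (adjusted p = 0.0513).

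Slfn8, of the same Schlafen family as Slfn5, had 6.26, 5.35, 5.72 and 6.53 in YS-derived, 5.95, 5.56, 5.95 and 6.26 in FL-derived and 6.08, 5.39, 6.76 and 5.90 in BM-derived macrophages, against 4.56, 4.99, 4.23 and 4.96 in 6-week alveolar macrophages. No transferred array of these 3 groups overlapped the controls. The differences were 1.28 ± 0.30 (adjusted p = 0.0115), 1.25 ± 0.30 (adjusted p = 0.0246) and 1.35 ± 0.30 (adjusted p = 0.00948). The calls were lost without control array 3 in all 3 groups, without YS-derived array 1 or 4, without FL-derived array 1, 3 or 4 or control array 1, and without BM-derived array 3 (highest adjusted p = 0.0789, 0.13 and 0.0919).

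OAS genes were also called against the controls. Oas1a had 8.23, 7.39, 8.10 and 8.30 in YS-derived and 8.22, 7.62, 8.47 and 8.15 in BM-derived macrophages, against 6.35, 7.10, 6.33 and 7.23 in 6-week alveolar macrophages. Neither group overlapped the controls, and Oas1a was higher by 1.25 ± 0.26 (adjusted p = 0.00353) and 1.36 ± 0.26 (adjusted p = 0.00206). Oasl2 had the YS-derived values given above and 6.05, 4.89, 6.37 and 6.27 in BM-derived macrophages, against 4.67, 4.79, 4.89 and 4.55 in controls, higher by 1.16 ± 0.31 (adjusted p = 0.0392) and 1.17 ± 0.31 (adjusted p = 0.0462). Array 2 of both transferred groups was near the controls for Oasl2, and its calls were lost in 6 of 8 (YS-derived) and 7 of 8 (BM-derived) fits without 1 array, the exceptions being YS-derived array 2 or 3 and BM-derived array 2.

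The remaining calls were 1 gene per group. Rtp4 was higher in YS-derived macrophages (values above) than in 6-week alveolar macrophages, at 6.03, 5.98, 5.96 and 5.84, by 1.80 ± 0.46 (adjusted p = 0.0321), a call lost without YS-derived array 1 or 4 or without any 1 control array (highest adjusted p = 0.2). Dhx58, or LGP2, which modulates both RNA sensors, had 5.79, 5.41, 6.61 and 6.35 in BM-derived macrophages, against 4.89, 4.64, 5.31 and 4.96 in controls, and was higher by 1.08 ± 0.22 (adjusted p = 0.00415). Both genes had no overlap with the controls. The counts changed accordingly: 5 in YS-derived became 2 without YS-derived array 1 or 4 or control array 3 and 3 without control array 1, 2 or 4. The 2 in FL-derived became 0 without FL-derived array 1 or control array 3 and 1 without FL-derived array 2 or 3 or control array 1 or 2. The 5 in BM-derived became 3 without BM-derived array 3 or 4 or control array 3 and 9 without BM-derived array 2. AM-derived macrophages had 1 without AM-derived array 1. Among these calls, Oasl2 and Rtp4 in YS-derived, Irf7 in FL-derived and Oasl2 in BM-derived macrophages were also lost with no filter on low values. A fit on only the compared groups lost Oasl2 in YS-derived and Dhx58, Irf7 and Oasl2 in BM-derived macrophages.

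**Figure D5:**
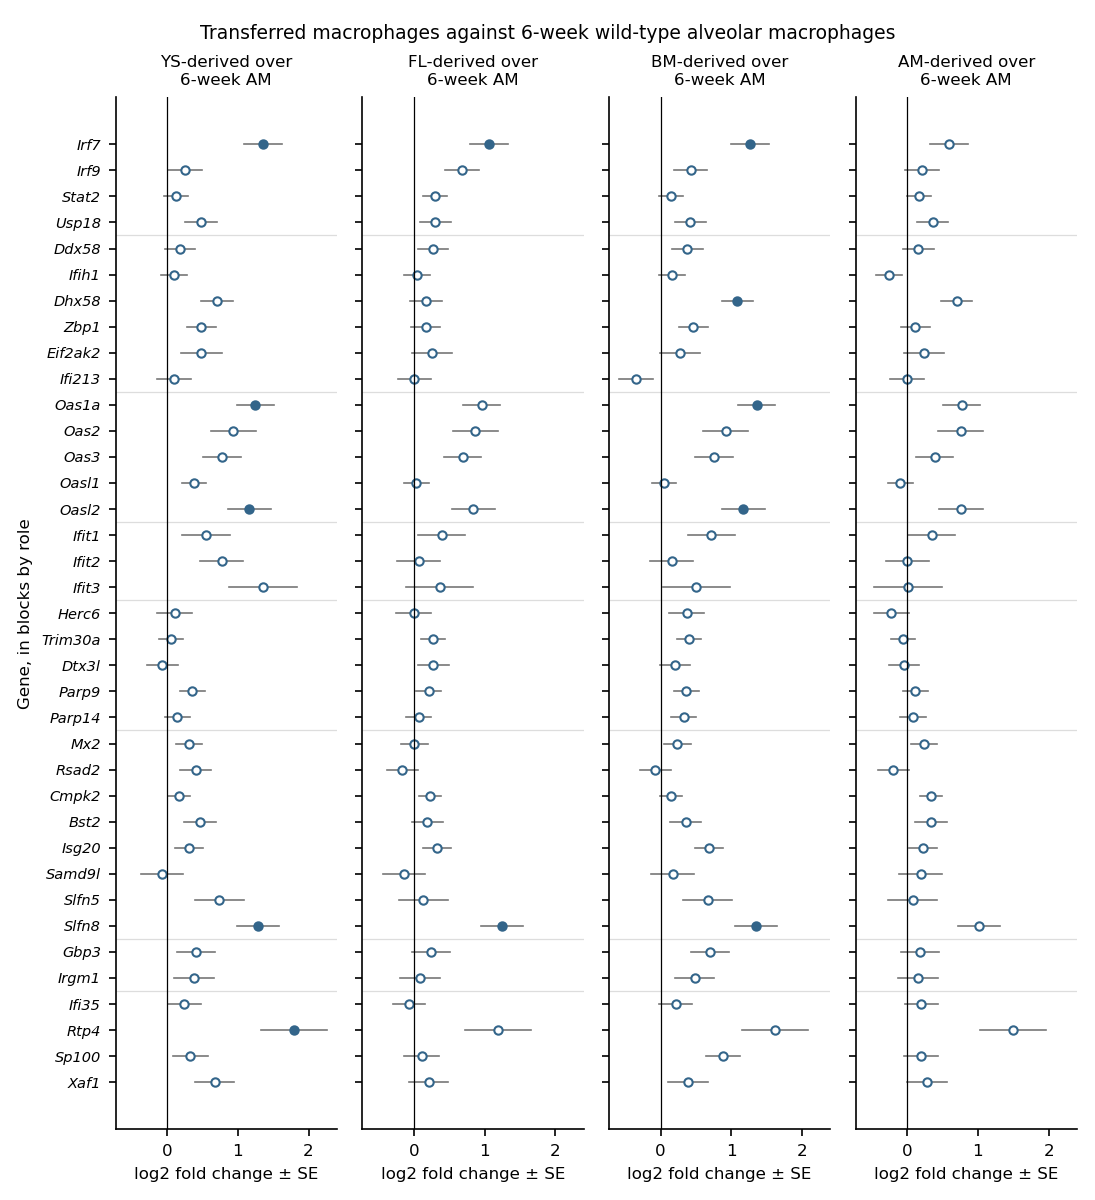
Log2 fold change ± SE of 37 interferon-stimulated genes in each transferred group over 6-week wild-type alveolar macrophages, in blocks by role; filled dots passed at adjusted p under 0.05. Filled dots number 5, 2, 5 and 0 from left to right and all lie right of 0, between 1.06 and 1.80.

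A comparison added after the data were seen set the 4 transferred groups (16 arrays) against the 2 untransferred alveolar macrophage groups (8 arrays). Of 37 ISGs 7 were higher and 0 lower, against 1.62% and 1.21% of all genes tested: Rtp4 by 1.38 ± 0.28 (adjusted p = 0.00209), Slfn8 by 1.18 ± 0.18 (adjusted p = 3.71e-05), Oas1a by 0.99 ± 0.16 (adjusted p = 6.83e-05), Oas2 by 0.96 ± 0.19 (adjusted p = 0.0016), Oasl2 by 0.95 ± 0.19 (adjusted p = 0.00135), Irf7 by 0.88 ± 0.16 (adjusted p = 0.000581) and Dhx58 by 0.49 ± 0.14 (adjusted p = 0.0391). All except Dhx58 kept the call in each of 24 fits that left out 1 array; Dhx58 lost it in 16 of them (highest adjusted p = 0.121), with no filter and in a fit on only these groups. Only Slfn8 among the 7 had no overlap, its transferred arrays lying at 5.35 to 6.76 and its untransferred ones at 4.19 to 5.28.

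Limma's F test over the 6 alveolar macrophage groups, which uses the same arrays, called 7 of the 37 genes (Dhx58, Irf7, Oas1a, Oas2, Oasl2, Rtp4 and Slfn8), against 3.15% of all genes tested. That count was 4 without adult array 1 or 3, BM-derived array 1, YS-derived array 1 or control array 1, 2 or 4, and 3 without BM-derived array 3 or 4. AM-derived macrophages, which were alveolar macrophages before transfer too, had Rtp4 at 6.10, 8.02, 7.32 and 8.37, against 6.29, 6.37, 6.24 and 6.07 in adult alveolar macrophages. Here 3 arrays were high and 1 lay within the adult range. Transfer, the instillation and the Csf2rb-/- lung cannot be told apart in these groups.

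Genes outside the module moved with the transferred groups. Of the 36 further interferon-induced genes 4 were higher and 0 lower, against 1.62% and 1.21% of all genes tested. The 4 were Ifi27l2a (1.46 ± 0.24), Slfn4 (1.49 ± 0.35), Ddx60 (0.75 ± 0.12) and Epsti1 (0.58 ± 0.11). Of 4 classical monocyte markers tested, 1 was higher and 0 lower, with a median of 0.14. It was the alarmin S100a8, at 10.49 in transferred and 9.36 in untransferred groups (1.13 ± 0.25, adjusted p = 0.00533). Its relative S100a9 was at 3.51 to 3.63 in transferred groups, 4.27 in adult and 3.58 in 6-week alveolar macrophages. The chemokine receptor Cxcr2 was at 6.91 in transferred and 5.57 in untransferred groups (1.34 ± 0.25, adjusted p = 0.000467). The 6 neutrophil markers averaged 4.46 to 5.26 in transferred arrays and 4.41 to 4.80 in untransferred ones, with Ly6g, Retnlg and Ltf under the table median in all 6 groups. Of 7 alveolar macrophage markers tested, 2 were lower and 0 higher, with a median of -0.02. The 2 lower were Siglecf (-0.62 ± 0.12) and Krt79 (-0.88 ± 0.15). The part of all these markers in the ISG difference was not tested. None of 5 interferon receptor genes was called.

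The ISGs also varied together from array to array within groups. Over 36 arrays, after the group means were removed, the median correlation was 0.293 over the 666 pairs of members and 0.001 over all pairs of tested genes, and 91.6% of member pairs were above 0, against 50.2% of all pairs. Arrays share their RNA amplification and scan, and pairs of genes are not independent, so this is a description. Slfn5, Oasl2 and Bst2 had the highest mean correlation with the other members (0.447, 0.422 and 0.402), and Ifi35, Ifi213 and Oasl1 the lowest (0.032, 0.043 and 0.049).

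The width of the 9 group means ran from narrow to wide among the members. Ifi35, which binds Nmi, spanned 0.65, Parp9 0.77, Herc6, the mouse ligase for ISG15, 0.81, Oasl1, which limits Irf7 translation in mice, 0.84 and Dtx3l 0.84. Eif2ak2 spanned 1.11, Ifih1 1.19, the ADP-ribosyltransferase Parp14 1.27, Stat2 1.40, Samd9l 1.43, the RNA exonuclease Isg20 1.44, Ddx58 1.56, Trim30a 1.69, Dhx58 1.81, the radical enzyme Rsad2 (viperin) 1.92 and the autophagy GTPase Irgm1 1.97. In Ddx58 the highest mean was that of BM-derived macrophages, and in Eif2ak2 and Parp14 that of yolk sac macrophages.

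Wider spans were seen in Oas3 (2.18), Ifit1 (2.24), Irf9 (2.25), Bst2 (2.31), the guanylate-binding GTPase Gbp3 (2.31), Zbp1 (2.34), Mx2 (2.35), Cmpk2 (2.57), Oas1a (2.59), the apoptosis factor Xaf1 (2.61), Ifit2 (2.68), Slfn8 (2.93), Sp100 (3.16), Oas2 (3.23), Oasl2 (3.26), Usp18 (3.28), Irf7 (3.71), Slfn5 (4.10), Ifit3 (4.16), Rtp4 (4.31) and Ifi213 (4.52). The bone marrow or yolk sac group was the highest for each of these 21.

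Of the members without a test, Mx1 was measured but exceeded the table median in 2 arrays only, both of bone marrow monocytes. It had 4.55, 4.90, 4.50 and 4.67 there, and group means of 3.05 to 3.72 in the other 8 groups; C57BL/6 mice carry a defective Mx1. Isg15, Gbp2, Igtp and Ifi204 had only probe sets that the annotation shares with another gene (Gm9706, Gbp2b, Irgm2 and Ifi211), and Ifi44 had no entry, so none of these 5 is given a value. Oas1a, Ifit3, Slfn8 and Ifi213 have close relatives in the mouse genome whose RNA could reach the same probes, which makes their values less certain.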

How the data were processed

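The deposited log2 values of 36 arrays were made with RMA (version not stated), per the submitters' processing notes; as a method, RMA corrects background, applies quantile normalization and summarises each probe set, which compresses differences of dim probe sets. Of 35556 probe sets, 21789 carried 1 gene symbol in the platform annotation, 1621 several and 12146 none; only the first were used, giving 19938 genes. Genes above the table median (4.62) in at least 4 arrays were tested, 12244 in all. A gene high in 1 group alone could pass, and its calls against that group are then not independent of the filter. One limma model (limma 3.58.1, R 4.3.3, lmFit and eBayes, all 9 groups) gave every fold change, SE and p-value, adjusted over all genes tested by the Benjamini-Hochberg method with a threshold of 0.05. Given in full were, per comparison, up to 5 called members with the largest differences and no overlap between groups, all called members where 5 or fewer were called, and members against the majority's direction. From the pathway lists, up to 4 called genes with the lowest adjusted p per comparison were named; the other list genes and markers were picked once values were known. The members and lists were chosen with earlier results of these data known. The precision is limited by 4 arrays per group. Replicate numbers did not pair the samples (median correlation of same-numbered deviations 0.00404).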

Additional observations from a re-analysis of the deposited data

Results flagged for a closer look

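In groups of 4 arrays, 6 of 198 groups of values had 1 array far from the other 3 (gap over range above Dixon's critical value). Chance gives about 1 in 20. The 198 did not cover all 37 tested genes. The 6 were Ifi213 in adult alveolar macrophages (array 2 at 2.97), Ifit2 in BM-derived (array 2 at 3.32), AM-derived (array 2 at 4.42) and 6-week alveolar macrophages (array 2 at 4.33), Ddx58 in adult alveolar macrophages (array 4 at 6.38) and Ifih1 in AM-derived macrophages (array 3 at 6.35). Genes not covered also had an array apart. Examples are Xaf1 in BM-derived macrophages (array 2 at 5.23, others at 6.40 to 6.50) and Mx2 in yolk sac macrophages (array 3 at 5.39, others at 4.68 to 4.72).

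The change over transfer differed between precursors by a test of the difference itself. Between fetal liver and bone marrow monocytes it was higher for 24 of 37 ISGs (4.26% of all genes tested), with Ifi213 at 4.34, Ifit3 at 3.96 and Usp18 at 2.33 (log2). Between yolk sac macrophages and bone marrow monocytes it was higher for 9 and lower for 2, against 12.4% and 18.2% of all genes tested. Ifi213 was at 2.93, Zbp1 at 2.36 and Oas3 at 1.99. Between yolk sac macrophages and fetal liver monocytes it was lower for 19 and higher for 2, against 13.5% and 9.48% of all genes tested. Ifit3 was at -3.16, Rtp4 at -2.43 and Oas2 at -2.37.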

How the results depend on the processing

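Of 51 gene and comparison pairs given in full, 39 kept the call under every alternative that tested the gene. The other 12 lost it under at least 1, and 0 changed direction. The alternatives were no filter, a filter at 18 arrays, centring each array on its median, an intensity trend in eBayes, the mean of a gene's probe sets, a fit on the compared groups only, a replicate block and leaving out each array in turn. The filter at 18 arrays removed Ifi213, Slfn5, Cmpk2 and Ifit2, so their pairs had no test under it. No member had several probe sets, so taking their mean could not change a member's values. Counts of genes past the threshold moved by over 1.5 times as follows; the cause was not tested. With each array centred, 3 genes were higher in YS-derived than in yolk sac macrophages and 16 changed higher over transfer for yolk sac than for bone marrow cells. In fits on the compared groups only, 2 were higher in BM-derived and 1 in AM-derived macrophages than in controls, 1 changed lower over transfer for yolk sac than for bone marrow cells, and the F test called 4. With no filter, 3 were higher in YS-derived and 1 in FL-derived macrophages than in controls. With the replicate block, 1 was lower in FL-derived than in BM-derived macrophages; the block moved no other count by that much and changed no call of a gene given in full. Leaving out 1 array gave, for FL-derived over fetal liver, 3 to 7 higher and 4 to 9 lower; for YS-derived over yolk sac, 1 to 2 higher; over controls, 2 to 5 higher in YS-derived, 0 to 2 in FL-derived, 3 to 9 in BM-derived and 0 to 1 in AM-derived; for FL-derived against BM-derived, 0 to 1 lower; for yolk sac against bone marrow changes over transfer, 1 to 2 lower; and for the F test, 3 to 8. Values under the table median lie near the floor of the arrays, so differences of dim genes are limited by signal over background.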
